A study of Sus scrofa with 63 samples.

Results

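Collagens, laminins and their cell surface receptors, the integrins, were followed in pig skin after sulfur mustard, a vesicating alkylating agent. Members were the genes whose symbol in the array annotation was that of a collagen, laminin or integrin chain, with COL7A1 and COL17A1 left out. There were 29 members among the 6765 genes with a single symbol on the array. They comprised 13 collagen genes, 3 laminin chains, 12 integrin chains and ITGB1BP2 (melusin, a striated muscle protein that binds an integrin tail), which matched by name and is no integrin chain. Where a gene had several probe sets, the brightest over all arrays was used. This applied to 15 members. Members were taken by name and probe sets by brightness, not by response. The rule itself was set with earlier results of these data known.

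Skin RNA came from female Yorkshire crossbred pigs. The exposed sites on the ventral abdomen received 400 µL of undiluted sulfur mustard for 8 min, and the control sites were unexposed sites of exposed animals. Sham animals were prepared in the same way and received no agent. Skin was sampled with an 8 mm punch after 1, 2, 4, 24, 48, 72, 168, 336 and 514 h, with 3 exposed, 3 control and 1 sham array at each time, 63 arrays in all. The labels do not say which exposed and control arrays came from the same animal, and no group carried a genetic change. The animals' age was not given in the sources used here.

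Collagens are triple-helical proteins that form the fibrils of the dermis, the sheet-like network of basement membranes and the beaded microfibrils between them. Laminins are three-chain proteins that join the collagen IV network in basement membranes under the epidermis and around vessels. Integrins are pairs of an alpha and a beta chain that bind these matrix proteins and link them to the cytoskeleton. In skin they hold keratinocytes to the basement membrane, anchor fibroblasts and vessel cells in the matrix, and let leukocytes leave vessels.

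The arrays were even in scale, with medians of 7.75 to 7.86 on the log2 scale and values from 4.05 to 14.54. Replicate arrays differed by a median SD of 0.335 over probe sets. As a check of the labelled tissue, 5 keratinocyte genes had a mean log2 signal between 11.56 and 12.80 in the 27 control arrays. In exposed arrays it ran from 9.02 to 13.11, and was lowest at 168 h (9.02 to 9.89), where none of the 3 exposed sites was scored as re-epithelialized. Biopsies also held skeletal muscle in varying amount. The mean log2 signal of 15 skeletal muscle genes ranged from 7.36 to 13.53 over the control arrays and from 7.18 to 13.48 over the exposed arrays. Pathology scores in the labels gave dermal necrosis the score 4 in all 9 exposed sites at 24 to 72 h and 0 in the controls. At 168, 336 and 514 h collagen orientation in the exposed sites averaged 0.667, 1.67 and 1, against 3 in every control and sham site. In whole biopsies, fewer cells of a type and less RNA per cell cannot be told apart.

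Members passed the test from 24 h on. A member was called higher or lower at an adjusted p below 0.05 in limma, on log2 values, with Benjamini-Hochberg adjustment over all 23999 probe sets. At 1, 2 and 4 h limma called no member, where 0.413%, 0.338% and 1.11% of all probe sets were called higher and 0.788%, 0.0542% and 0.342% lower (1.2%, 0.392% and 1.45% together). No member had an unadjusted p below 0.05 at these times. At 24 h 2 members were higher and 7 lower, with 27.1% of all probe sets called (14.4% higher, 12.7% lower). The 48 h arrays had 1 member higher and 1 lower, with 9.95% of probe sets called (5.84% higher, 4.11% lower). After 72 h 3 members were higher and 4 lower, with 9.65% of probe sets called (5.4% higher, 4.25% lower). After 168 h 5 were higher and 4 lower, with 17.9% called (9.87% higher, 8.06% lower). At 336 h 1 was higher and 3 lower, with 4.04% called (2.38% higher, 1.66% lower). At 514 h 2 were higher and 1 lower, with 5.83% called (3.7% higher, 2.13% lower). The map of log2 differences by gene and time shows the falls among fibrillar collagens, collagen VI and LAMB2, and both rises and falls among integrins. At 24 h 2 of the 12 integrin chains were higher and 2 lower, the latter ITGB5 (-1.45) and ITGA8 (-0.85).

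**Figure D1:**
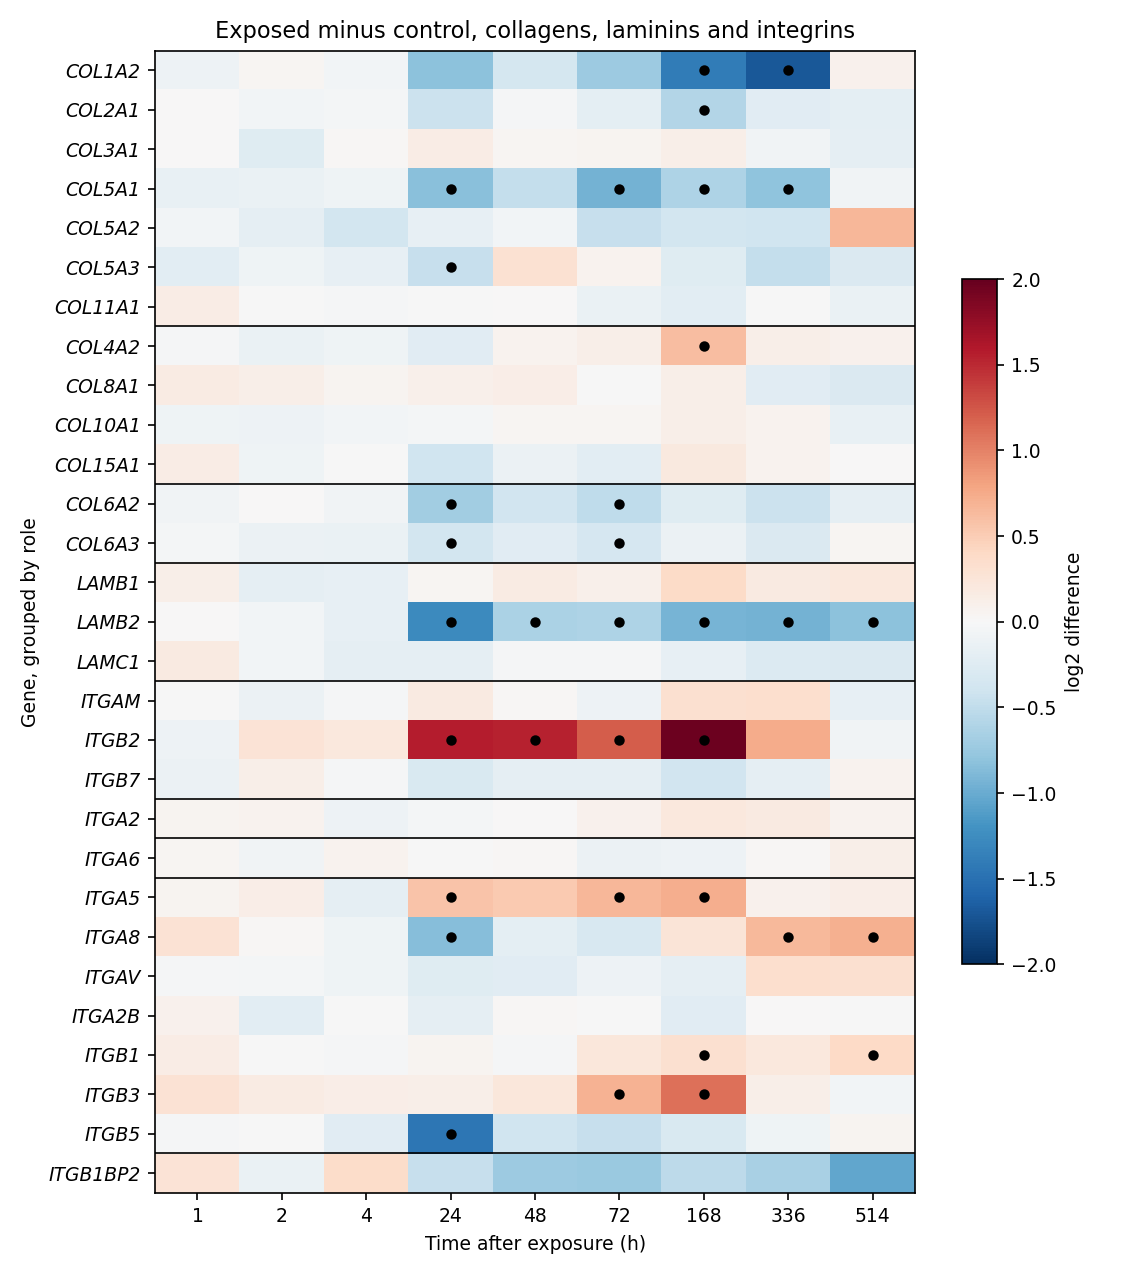
Log2 difference, exposed minus control, for the 29 members (rows, grouped by role) at 9 times (columns, hours). Red is higher and blue lower in exposed skin, and a dot marks an adjusted p below 0.05. No dot lies at 1, 2 or 4 h, and LAMB2 has a dot at every time from 24 h on.

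Means over 3 times gave more precise values than single times. In the 1 to 4 h window limma called no member, against 5.48% of all probe sets (2.07% higher, 3.41% lower), and 1 member (ITGB3) had an unadjusted p below 0.05. In the 24 to 72 h window 3 members were higher and 8 lower, which is 37.9% of the members against 35.1% of all probe sets (18.2% higher, 16.9% lower). In the 168 to 514 h window 6 were higher and 7 lower, 44.8% against 21.9% (12% higher, 9.88% lower). The median log2 difference of the members was -0.06 and -0.05 in these windows, and that of all probe sets -0.003 and -4.33e-05. Over the times and windows 17 members were called somewhere and 12 nowhere.

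Counts by family follow, and counts by role come later, both to be read against the shares of all probe sets given above. Differences between the families were not tested. Of the 13 collagens none was higher and 4 were lower at 24 to 72 h (median -0.21), and 1 was higher and 5 lower at 168 to 514 h (median -0.12). Of the 12 integrin chains 3 were higher and 3 lower in the earlier window, and 5 were higher and none lower in the later one (median 0.16). Of the 3 laminin chains 1 was lower in the earlier window and 2 in the later.

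**Figure D2:**
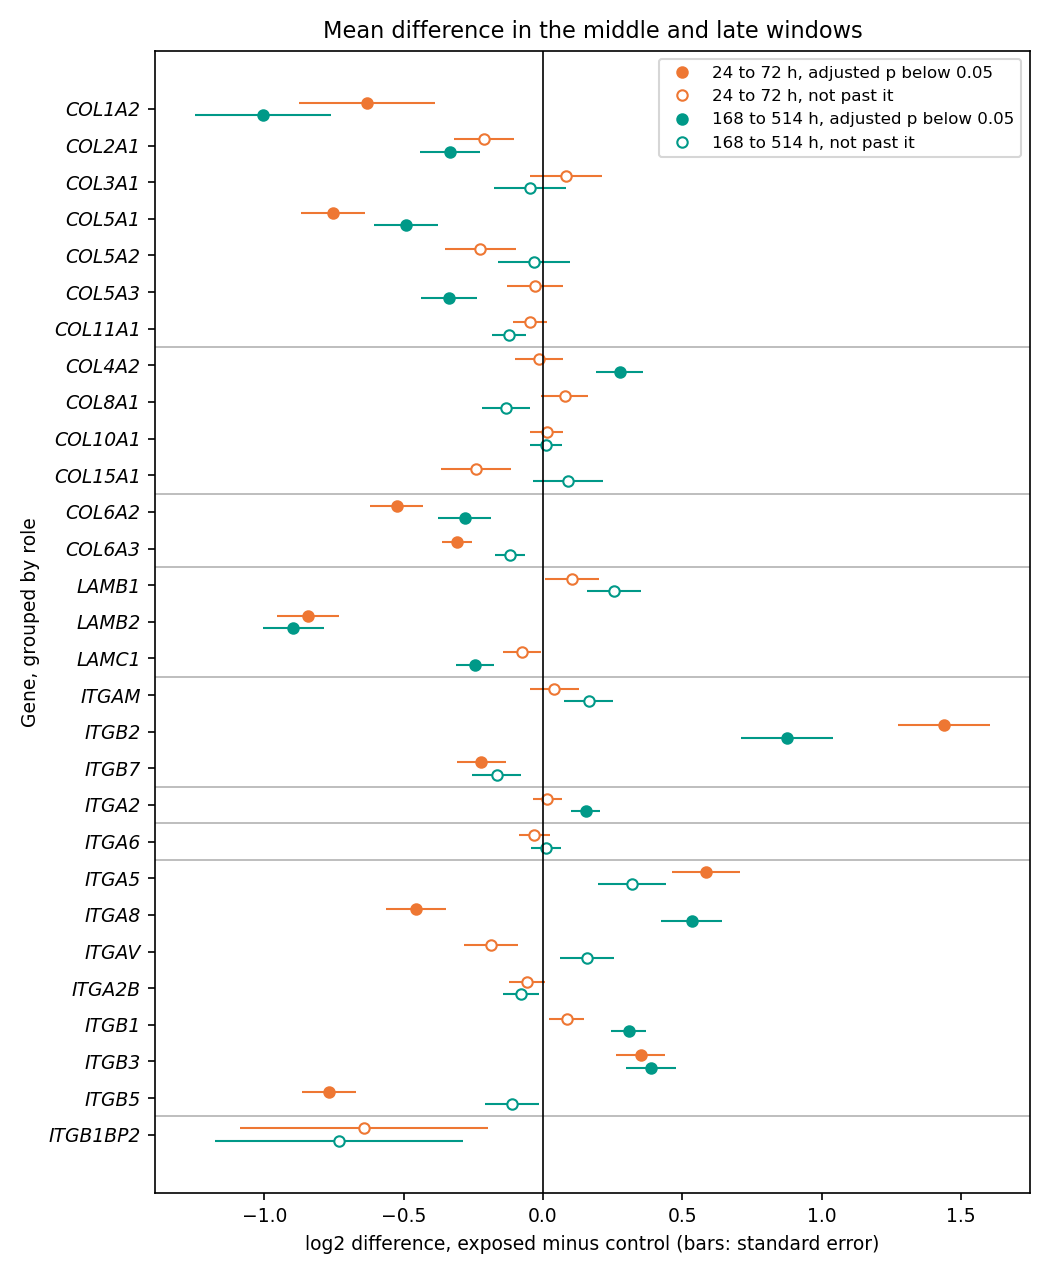
Log2 difference, exposed minus control, of each member over 24 to 72 h (orange) and 168 to 514 h (green), each from 9 exposed and 9 control arrays. Bars are standard errors and filled points have an adjusted p below 0.05. LAMB2, COL5A1 and COL1A2 lie left of 0 in both windows, ITGB2 right of 0 in both, and ITGA8 on opposite sides.

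LAMB2, the laminin beta 2 chain of basement membranes around vessels, at nerve endings on muscle and in skin, was lower at all 6 times from 24 to 514 h. At 24 h its log2 signals were 9.77, 9.85 and 9.44 in the exposed arrays, against 10.84, 10.74 and 11.30 in the controls and 11.24 in the sham array. At 514 h they were 10.09, 9.95 and 10.32 in the exposed arrays, against 10.96, 10.92 and 10.96 in the controls and 10.77 in the sham array. The exposed and control arrays did not overlap at any of the 6 times. At 1 h they did, with 11.40 to 11.52 in exposed and 11.35 to 11.56 in control skin.

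The fall of LAMB2 was as large late as early. It was -0.84 ± 0.11 (SE) on the log2 scale at 24 to 72 h (limma adjusted p = 6.52e-08) and -0.90 ± 0.11 at 168 to 514 h (adjusted p = 5.81e-08), 1.80-fold and 1.86-fold lower. The difference between the windows was -0.05 ± 0.16 (adjusted p = 0.899). In order of time from 24 to 514 h it was -1.27, -0.64, -0.62, -0.92, -0.94 and -0.83. The calls at 48 h and 72 h were each lost without a single array (exposed 2, exposed 3, control 1 or control 2 at 48 h; exposed 3, control 1 or control 2 at 72 h), as was that at 514 h without exposed 2. The skeletal muscle genes moved with it at 24 h, where their mean was 7.40 to 8.90 in exposed and 10.10 to 11.47 in control arrays. With each array's muscle mean in the model, the difference of LAMB2 was -0.86 and -0.91 in the 2 windows. Of 10 endothelial genes 2 were higher and 2 lower in the earlier window and 2 higher in the later. Of 5 fat cell genes none was called in the earlier and all were lower in the later. Shares of all probe sets were 18.2% higher and 16.9% lower in the earlier window, and 12% and 9.88% in the later.

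LAMB1, the beta chain that can take the same place in a laminin, was not called. Its difference at 168 to 514 h was 0.26 ± 0.10 (limma adjusted p = 0.0518). Its log2 signals at 168 h were 11.18, 11.24 and 11.41 in exposed skin against 11.01, 10.87 and 10.78 in the controls and 11.07 in the sham array. The 2 beta chains thus had differences of opposite sign late, of which that of LAMB2 passed the test. The second probe set of LAMB1 gave 0.34 there (adjusted p = 0.00924).

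LAMC1, the gamma chain shared by most laminins, depended on the probe set. In the brightest set its difference was -0.07 ± 0.07 at 24 to 72 h (limma adjusted p = 0.448), and exposed arrays ran from 11.31 to 12.00 against 11.32 to 12.10 in the controls. The other 3 probe sets rose there by 0.92, 0.91 and 0.78, with every one called at 24, 48 and 72 h. In the first of these, exposed arrays ran from 9.79 to 10.55 and controls from 9.05 to 9.63, without overlap. The brightest set thus stood level in skin where 3 others of the same gene were higher.

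The gap between the probe sets was tested within arrays. The test was chosen after the gap had been seen in these same arrays, so its p-values give no independent support for it. Each other set minus the brightest was 0.99, 0.98 and 0.85 higher in the 9 exposed than in the 9 control arrays of 24 to 72 h. An exact permutation test within times, two-sided over 8000 arrangements, gave p = 0.00025, 0.00025 and 0.0005 (0.000375, 0.000375 and 0.0005 adjusted over the 3), and 0.00025 is the smallest it can give. In 2 of the 3 sets every exposed array lay above every control in this gap. At 168 to 514 h the brightest set was lower by -0.24 ± 0.07 (limma adjusted p = 0.00753), while the others gave 0.08, 0.02 and 0.08 and were not called. The response of LAMC1 as a gene is therefore not settled by these values, and which transcript each set reads was not tested.

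**Figure D3:**
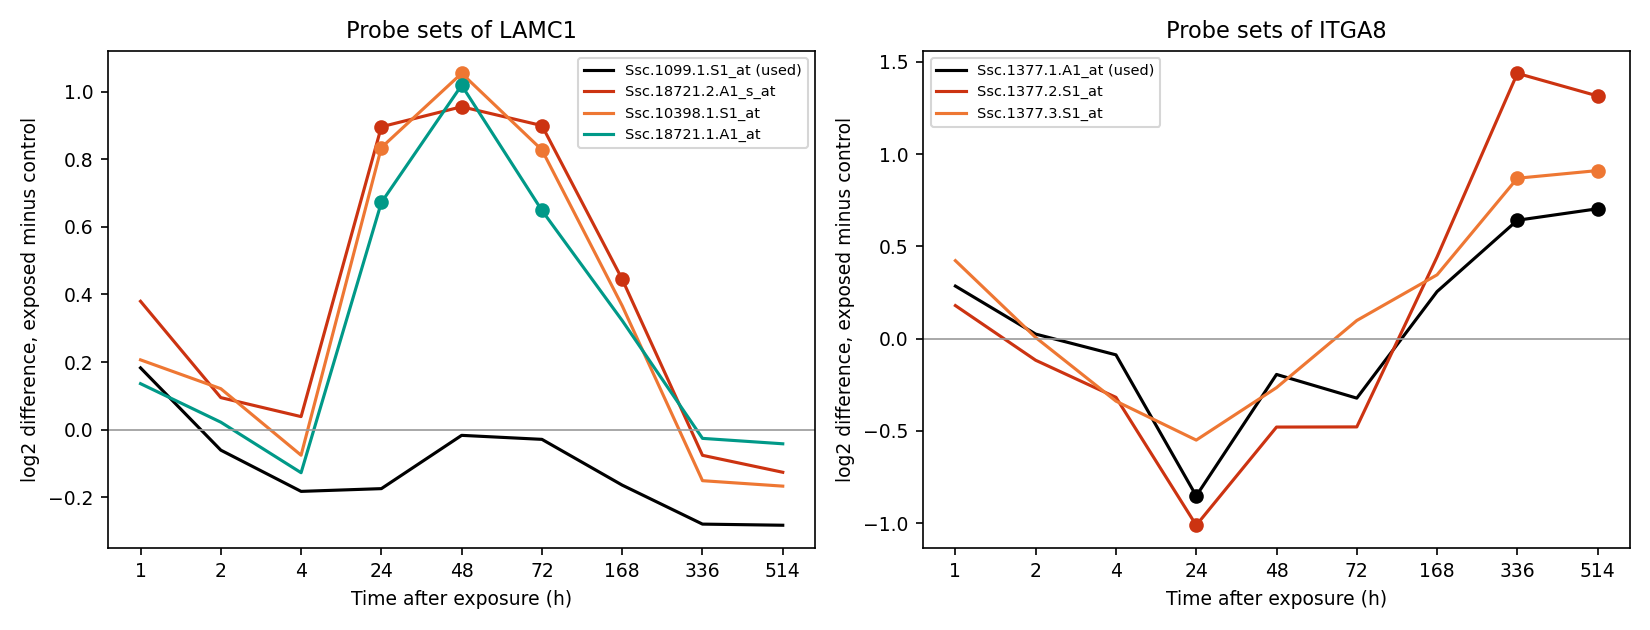
Log2 difference, exposed minus control (vertical axis), by time in hours for the 4 probe sets of LAMC1 (left) and the 3 of ITGA8 (right), with the set used in black and dots at an adjusted p below 0.05. The LAMC1 sets part at 24 to 72 h, where 3 are higher and the black line is near 0, while the ITGA8 sets all fall at 24 h and lie above 0 from 168 h on.

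Among the 7 fibril-forming collagens 2 fell at 24 to 72 h and 4 at 168 to 514 h, and none rose in either window. COL1A2 encodes a chain of collagen I, the main fibril of the dermis. Its log2 signals at 168 h were 12.55, 11.81 and 11.36 in exposed skin, against 13.11, 13.71 and 13.09 in the controls and 13.67 in the sham array. At 336 h they were 9.92, 10.38 and 11.76 against 11.91, 12.55 and 12.69, with 12.26 in the sham array. Exposed arrays lay below all controls at both times. At 514 h they no longer did, with 10.81, 11.30 and 11.14 in exposed skin against 10.88, 10.93 and 11.18 in the controls and 11.03 in the sham array.

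COL1A2 fell by 1.40 ± 0.42 at 168 h (limma adjusted p = 0.0158) and by 1.70 ± 0.42 at 336 h (adjusted p = 0.012), 2.64-fold and 3.25-fold, and differed by 0.08 at 514 h. Over 168 to 514 h it fell by 1.01 ± 0.24 (adjusted p = 0.00194), a call kept without any 1 of the 18 arrays. The smaller fall at 24 to 72 h, -0.63 ± 0.24 (adjusted p = 0.0392), was lost in 10 of 18 such fits (24 h exposed 2, control 1 and control 2; 48 h exposed 3, control 2 and control 3; 72 h exposed 1, exposed 3, control 2 and control 3). The single-time calls went without exposed 2, exposed 3 or control 2 at 168 h, and without exposed 1, exposed 2, control 2 or control 3 at 336 h. Control arrays themselves ranged from 10.88 to 13.71 over the 3 late times, so the level of COL1A2 is read only within a time. A second probe set correlated weakly with the first (r = 0.0938 over 63 arrays) but was also lower, by -1.09 and -0.67 in the 2 windows, both called. By single times the second set was called only at 72 h (-1.49, limma adjusted p = 0.00535). At 168 h and 336 h it gave -0.81 and -1.02 and was not called, so the 2 sets differ in the times called.

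**Figure D4:**
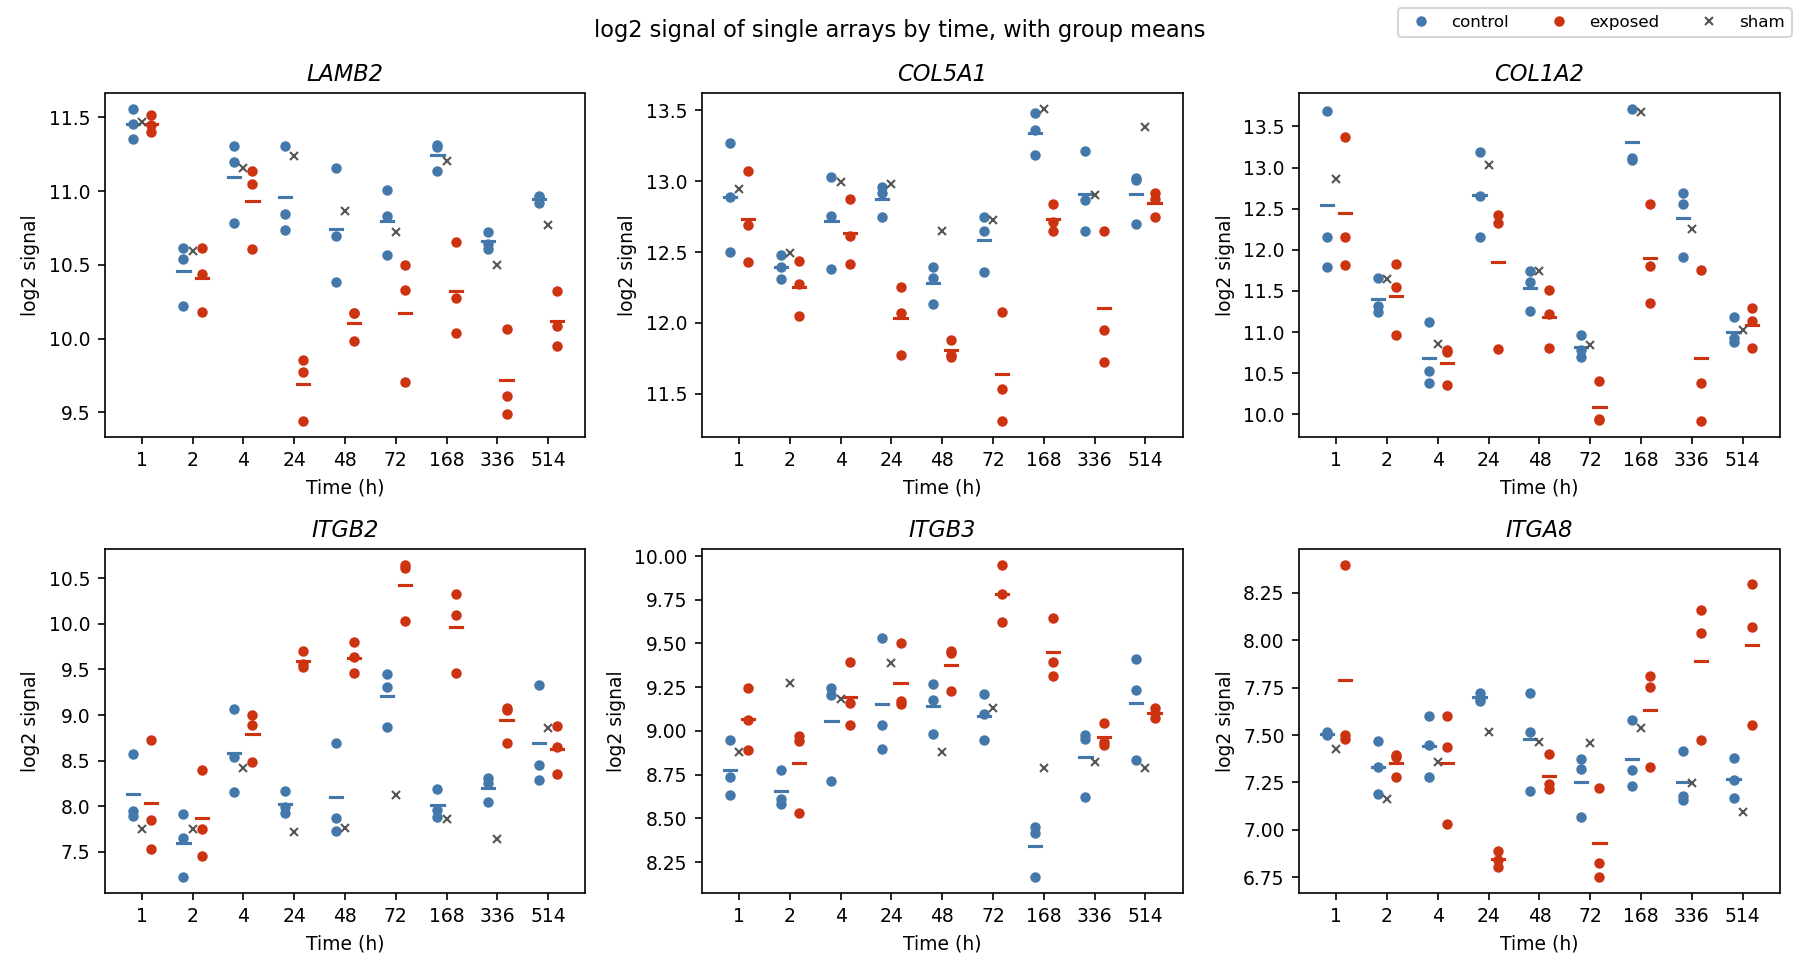
Log2 signal of every array (vertical axis) by time in hours for LAMB2, COL5A1, COL1A2, ITGB2, ITGB3 and ITGA8, with control in blue, exposed in red, sham as a cross and bars at group means. Red points of LAMB2 lie below all blue points at every time from 24 h on, and those of ITGB2 lie above all blue points from 24 to 336 h.

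COL5A1 encodes a chain of collagen V, which forms the core of dermal fibrils and sets their width. At 24 h its log2 signals were 12.26, 12.07 and 11.77 in exposed skin against 12.75, 12.91 and 12.96 in the controls and 12.98 in the sham array. At 72 h they were 11.31, 12.08 and 11.53 against 12.36, 12.65 and 12.74, with 12.73 in the sham array. No exposed array reached the lowest control at either time. At 514 h the groups overlapped, with 12.75 to 12.91 in exposed skin and 12.70 to 13.02 in the controls.

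The fall of COL5A1 was -0.75 ± 0.11 at 24 to 72 h (limma adjusted p = 1.37e-06) and -0.49 ± 0.11 at 168 to 514 h (adjusted p = 0.0013). By single times it was called at 24, 72, 168 and 336 h (-0.84, -0.94, -0.61 and -0.80), and at 514 h it was -0.07. The call at 168 h was lost without exposed 1, exposed 2, control 1 or control 2, and that at 336 h without exposed 1, exposed 2 or control 3. Of its 5 other probe sets the next brightest was lower by -0.43 at 24 to 72 h and called, and 3 dim sets stayed between 0.02 and 0.07 there. Averaged over all 6 sets, the fall was called in both windows but not at 24, 72 or 336 h.

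The other fibrillar collagens moved less. COL5A3, a further collagen V chain, was lower by -0.34 ± 0.10 at 168 to 514 h (limma adjusted p = 0.0116). Its other, dimmer probe sets gave -0.045 and 0.0006 there and were not called. COL2A1, the chain of collagen II known from cartilage, was lower by -0.34 ± 0.11 in that window (adjusted p = 0.0205), a call lost without control 2 of 168 h or exposed 1 of 514 h. A dimmer probe set of COL2A1 gave -0.17 there and was not called (limma adjusted p = 0.0883). It did not correlate with the set used (r = -0.0254 over 63 arrays). At 168 h COL2A1 read 9.20, 9.11 and 8.99 in exposed skin, below the 9.68, 10.03 and 9.33 of the controls and the 9.68 of the sham array. COL5A2 reached 0.66 at 514 h, with 8.94, 9.05 and 8.81 in exposed skin against 8.31, 7.89 and 8.61 in the controls and 8.69 in the sham array, but did not pass (adjusted p = 0.07). A second, dimmer probe set of COL5A2 gave 0.04 at 514 h and was not called (limma adjusted p = 0.927). COL3A1, the collagen III chain that shares dermal fibrils with collagen I, was measured by 1 probe set of moderate signal and stayed between -0.24 and 0.15 at all 9 times. COL11A1 stayed between -0.22 and 0.15.

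Collagen VI, which forms beaded microfibrils around cells, was lower at 24 to 72 h in both chains measured. At 24 h COL6A2 read 11.77, 11.88 and 11.66 in exposed skin, below the 12.37, 12.35 and 12.65 of the controls and the 12.35 of the sham array. COL6A3 read 13.36, 13.28 and 13.32, below the controls at 13.57, 13.67 and 13.81 and the sham array at 13.70. Over 24 to 72 h COL6A2 fell by 0.52 ± 0.10 (limma adjusted p = 2.55e-05) and COL6A3 by 0.31 ± 0.05 (adjusted p = 1.25e-05). All 9 exposed arrays of COL6A3 lay below all 9 controls, although the change was small.

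The late values of collagen VI were smaller. COL6A2 was -0.28 ± 0.10 (limma adjusted p = 0.0291), a call lost in 7 of 18 fits that left out 1 array (168 h exposed 2 and control 1; 336 h exposed 1, exposed 2 and control 3; 514 h exposed 1 and control 3). COL6A3 was -0.12 ± 0.05 and not called (adjusted p = 0.114). The change between the windows was 0.19 ± 0.08 for COL6A3 (adjusted p = 0.116) and did not pass.

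Of the 4 basement membrane and network collagens 1 was called. COL4A2, a chain of the collagen IV network on which basement membranes are built, was the one collagen called higher in the probe sets used. At 168 h it read 12.73, 12.84 and 13.14 in exposed skin, above the 12.18, 12.23 and 12.47 of the controls and the 12.39 of the sham array. Its difference was 0.61 ± 0.15 at 168 h (limma adjusted p = 0.00233) and 0.28 ± 0.08 over 168 to 514 h (adjusted p = 0.0152). The window value was carried by 168 h, since 336 h and 514 h gave 0.12 and 0.09 and were not called. At 24 to 72 h COL4A2 was near 0, and the difference between the windows did not pass (0.29 ± 0.12, limma adjusted p = 0.132). COL8A1, COL10A1 and COL15A1, chains of network-forming collagens and of a collagen of the basement membrane zone, were not called at any time, with differences between -0.39 and 0.19. A dimmer probe set of COL8A1 was called higher at 168 to 514 h (0.21, limma adjusted p = 0.0238). The set used gave -0.13 there and the remaining ones -0.08 and 0.02, none called.

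ITGB2, the beta chain that pairs with alpha chains found on leukocytes, had the largest rise among the members. At 24 h it read 9.53, 9.56 and 9.70 in exposed skin, against 7.93, 7.99 and 8.17 in the controls and 7.72 in the sham array. At 168 h it read 10.10, 10.33 and 9.46 against 7.88, 8.19 and 7.96, with 7.86 in the sham array. At 514 h the groups overlapped, with 8.35, 8.88 and 8.65 in exposed skin, 8.29, 9.33 and 8.45 in the controls and 8.86 in the sham array. Exposed arrays lay above all controls from 24 to 336 h and among them at 514 h.

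ITGB2 rose by 1.44 ± 0.16 at 24 to 72 h (limma adjusted p = 4.53e-09), 2.71-fold, and by 0.88 ± 0.16 at 168 to 514 h (adjusted p = 9.54e-05), 1.83-fold. By single times it rose by 1.57, 1.53, 1.22 and 1.95 at 24, 48, 72 and 168 h, calls kept without any 1 array of those times. At 72 h the controls of exposed animals themselves read 8.87 to 9.45, above the sham array at 8.12. Against the sham arrays the rise at 24 to 72 h was 2.02.

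Leukocyte genes moved with ITGB2. Of 15 such genes 10 were higher and none lower at 24 to 72 h, and 11 higher at 168 to 514 h. Shares of all probe sets were 18.2% higher and 16.9% lower in the earlier window, and 12% and 9.88% in the later. The mean of the 15 ran from 9.44 to 10.81 in exposed and 8.40 to 9.70 in control arrays at 24 to 72 h, and from 8.92 to 10.07 and 8.58 to 9.63 at 168 to 514 h. Among them NCF4, a part of the phagocyte oxidase, rose by 1.72 and CD163, a macrophage scavenger receptor, by 1.60 at 24 to 72 h. The T cell genes CD3E, CD4 and CD8A were not called in either window (0.17 to 0.34). Over the 63 arrays ITGB2 followed this mean with r = 0.955, which describes arrays that share exposure, time and animals. The part of cell number in the rise of ITGB2 was not tested.

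**Figure D5:**
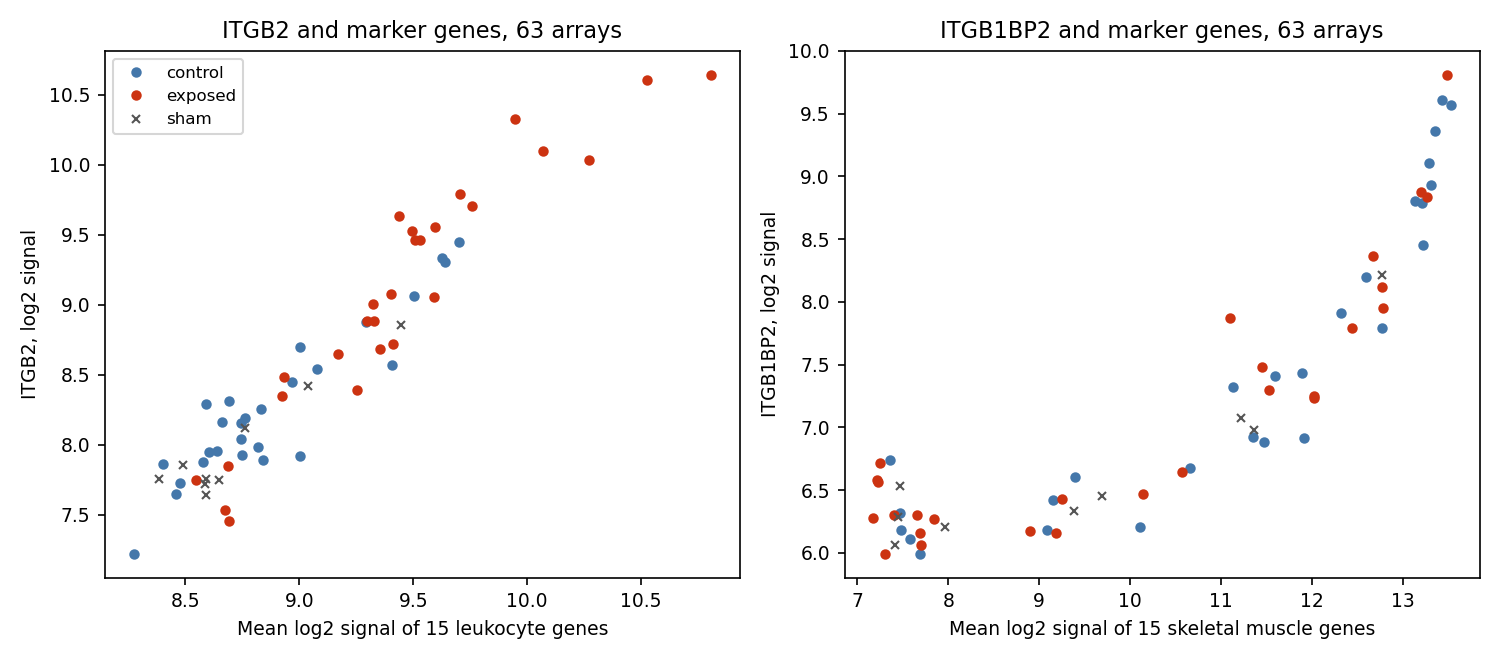
Left, log2 signal of ITGB2 against the mean log2 signal of 15 leukocyte genes; right, log2 signal of ITGB1BP2 against the mean of 15 skeletal muscle genes. Each point is 1 of 63 arrays (control blue, exposed red, sham cross); exposed arrays reach the highest values on the left (r = 0.955), while on the right control and exposed arrays lie along the same curve (r = 0.874).

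The other leukocyte integrins did not follow ITGB2. ITGAM, the alpha chain that pairs with it on neutrophils and macrophages, was measured near the lower end of the scale, at 6.73, 6.95 and 6.95 in exposed skin at 168 h against 6.44, 6.55 and 6.70 in the controls and 6.21 in the sham array. It was called at no time (-0.16 to 0.34). ITGB7, the beta chain of integrins that guide lymphocytes to gut and epithelium, was lower by -0.22 ± 0.09 at 24 to 72 h (limma adjusted p = 0.0457). That call was lost in 11 of 18 fits that left out 1 array (24 h exposed 2, control 2 and control 3; 48 h exposed 1, exposed 2, control 2 and control 3; 72 h exposed 2, exposed 3, control 1 and control 2). A second probe set of ITGB7, of similar signal, gave 0.096 at 24 to 72 h and was not called (limma adjusted p = 0.341). At 24 h the set used gave -0.30 and the second set 0.24, neither called. Signals this low are compressed by the array's scale, which limits what a small difference in ITGAM or ITGB7 can show.

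Of the 7 chains that bind RGD-type ligands such as fibronectin and vitronectin, or are shared among many integrins, 2 rose and 2 fell at 24 to 72 h. At 168 to 514 h 3 rose and none fell. ITGA5, the alpha chain of the fibronectin receptor, read 9.57, 9.33 and 9.21 in exposed skin at 24 h against 8.86, 8.66 and 8.90 in the controls and 8.43 in the sham array. At 168 h it read 9.40, 9.53 and 9.01 against 8.82, 8.80 and 8.12, with 8.90 in the sham array. Exposed arrays lay above the controls at both times.

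ITGA5 rose by 0.58 ± 0.12 at 24 to 72 h (limma adjusted p = 0.00017) and was 0.32 ± 0.12 at 168 to 514 h, just short of the threshold (adjusted p = 0.0537). It was called at 24, 72 and 168 h (0.57, 0.67 and 0.73). These calls were lost without a single array, which was any but exposed 3 at 24 h, exposed 3 or any control at 72 h, and exposed 1, exposed 2 or control 3 at 168 h. The second, dimmer probe set of ITGA5 gave -0.03 at 24 to 72 h and was not called, and the mean of both sets, 0.28, was called there. At 24 h and 72 h that mean was 0.24 and 0.33 and not called. With the muscle mean of each array in the model, ITGA5 was 0.36 at 24 h and not called; the muscle genes' mean at 24 h ran from 7.40 to 8.90 in exposed and 10.10 to 11.47 in control arrays, and correlated with ITGA5 at r = -0.583 over the 63 arrays.

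ITGB3, the beta chain of the vitronectin receptor and of the platelet fibrinogen receptor, rose at 72 h and 168 h. At 72 h it read 9.95, 9.62 and 9.78 in exposed skin against 9.21, 8.95 and 9.10 in the controls and 9.13 in the sham array. At 168 h it read 9.39, 9.32 and 9.64 against 8.16, 8.45 and 8.42, with 8.79 in the sham array. At 336 h and 514 h exposed arrays, at 8.92 to 9.13, lay within the range of the controls, 8.62 to 9.41.

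The differences of ITGB3 were 0.70 ± 0.15 at 72 h (limma adjusted p = 0.00203) and 1.11 ± 0.15 at 168 h (adjusted p = 1.1e-06), 1.62-fold and 2.15-fold. Both calls were kept without any 1 array. Over 168 to 514 h the mean was 0.39 ± 0.09 (adjusted p = 0.0011), carried by 168 h, since 336 h and 514 h gave 0.12 and -0.06. At 168 h the controls of ITGB3 also read below the sham array, against which the rise was 0.66 and still called; at 72 h it was 0.65 against the sham array and not called. ITGAV, its partner in the vitronectin receptor, and ITGA2B, its partner on platelets, were not called at any time, with differences between -0.25 and 0.33. Of 3 platelet genes 1, the chemokine gene PPBP, rose in both windows (4.72 and 1.39), while GP9 and ITGA2B were not called.

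ITGA8, the alpha chain of an RGD-binding integrin of smooth muscle, pericytes and activated fibroblasts, changed direction. At 24 h it read 6.81, 6.89 and 6.84 in exposed skin, below the 7.72, 7.69 and 7.68 of the controls and the 7.52 of the sham array. At 336 h it read 8.04, 8.16 and 7.47, above the 7.16, 7.41 and 7.18 of the controls and the 7.25 of the sham array. At 514 h it read 8.07, 8.30 and 7.55, above the 7.26, 7.38 and 7.17 of the controls and the 7.09 of the sham array. The groups did not overlap at these 3 times, below the controls at the first and above them at the others.

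ITGA8 fell by 0.46 ± 0.11 at 24 to 72 h (limma adjusted p = 0.000796) and rose by 0.53 ± 0.11 at 168 to 514 h (adjusted p = 0.000248). Within the earlier window only 24 h was called (-0.85), with -0.19 at 48 h and -0.32 at 72 h. The change between the windows was 0.99 ± 0.15 (adjusted p = 3.51e-05), kept in all 44 alternative fits. In that comparison 8.45% of all probe sets were called (4.45% higher, 4% lower), and of the members 2 were higher and none lower. The other probe sets of ITGA8 were higher still at 336 h (1.44 and 0.87) and 514 h (1.32 and 0.91), all called. At 24 to 72 h they gave -0.66, which was called, and -0.24, which was not (limma adjusted p = 0.149). The single-time calls of the set used were lost without any array but exposed 3 at 336 h, and without exposed 1, exposed 2, control 1 or control 3 at 514 h.

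Vessel wall genes moved in part with ITGA8. Of 6 smooth muscle and pericyte genes 2 were lower at 24 to 72 h (16.9% of all probe sets were). At 168 to 514 h 3 of these genes were higher (12% of all probe sets were). Their mean ran from 10.73 to 11.44 in exposed and 11.02 to 11.46 in control arrays in the earlier window, and from 11.03 to 11.45 and 10.75 to 11.28 in the later. RGS5, a pericyte gene, fell by 0.45 and then rose by 0.57, and PDGFRB, a receptor of pericytes and fibroblasts, rose by 0.27 late. ACTA2, the smooth muscle actin gene, fell by 0.22 and was 0.17 late, which was not called. The part of these cells in the values of ITGA8 was not tested.

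ITGB5, a beta chain that pairs with ITGAV and is expressed by keratinocytes and fibroblasts, had the largest fall at 24 h. It read 10.07, 10.03 and 9.71 in exposed skin, against 11.34, 11.29 and 11.53 in the controls and 11.08 in the sham array. The groups stood more than 1 log2 unit apart. At 168 h they overlapped, with 10.52, 10.57 and 11.02 in exposed skin against 11.14, 10.92 and 10.96 in the controls and 10.94 in the sham array.

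ITGB5 fell by 1.45 ± 0.17 at 24 h (limma adjusted p = 1.22e-08), 2.73-fold, and by 0.77 ± 0.10 over 24 to 72 h (adjusted p = 3.04e-08), where all 9 exposed arrays lay below all 9 controls. At 168 to 514 h it was -0.11 ± 0.10 and not called (adjusted p = 0.466). The change between the windows was 0.66 ± 0.14 (adjusted p = 0.00142), kept in all 44 alternative fits. All 5 keratinocyte genes were lower at 24 to 72 h, where their mean ran from 9.95 to 11.50 in exposed and 11.90 to 12.75 in control arrays. At 168 to 514 h 3 of the 5 were lower, and DSP and JUP, genes of cell junctions, were not called. At 168 h alone all 5 were lower (median -4.10), while ITGB5 was -0.30 and not called (limma adjusted p = 0.227). The part of keratinocyte loss in the fall of ITGB5 was not tested.

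ITGB1, the beta chain shared by the receptors for collagen, laminin and fibronectin, was higher late. At 168 h it read 12.21, 12.32 and 12.10 in exposed skin against 11.81, 11.93 and 11.94 in the controls and 11.92 in the sham array. At 514 h it read 12.11, 12.12 and 12.09 against 11.60, 11.67 and 11.88, with 11.68 in the sham array. All exposed arrays lay above the controls at both times. Over 168 to 514 h the rise was 0.31 ± 0.06 (limma adjusted p = 0.000262). The single-time calls were lost without any array but exposed 3 at 168 h, and without exposed 1, exposed 2, control 1 or control 2 at 514 h.

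Collagen- and laminin-binding alpha chains gave little signal. ITGA2, the alpha chain of a collagen receptor of keratinocytes and platelets, was 0.15 ± 0.05 higher at 168 to 514 h (limma adjusted p = 0.027). Its arrays there ran from 5.38 to 5.77 in exposed and 5.21 to 5.71 in control skin, near the bottom of the scale. The call was lost in 5 of 18 fits that left out 1 array (168 h exposed 3; 336 h exposed 3 and control 2; 514 h exposed 2 and control 2). A second, dimmer probe set of ITGA2 gave 0.016 at 168 to 514 h and was not called (limma adjusted p = 0.849). It correlated negatively with the set used (r = -0.298 over 63 arrays). ITGA6, the laminin-binding chain of hemidesmosomes, lay at the same end of the scale and stayed between -0.12 and 0.11 at all times.

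ITGB1BP2 behaved apart from the chains. Its difference was -0.64 ± 0.45 at 24 to 72 h and -0.73 ± 0.45 at 168 to 514 h, and limma called it at no time. At 168 h it read 6.58, 6.56 and 6.72 in exposed skin against 6.32, 6.18 and 8.93 in the controls and 6.06 in the sham array, so 1 control array stood far above the rest. Over the 63 arrays it followed the mean of 15 skeletal muscle genes with r = 0.874. Of those 15 genes none was higher in either window. At 24 to 72 h 1 was lower (16.9% of all probe sets were), and at 168 to 514 h 3 were (9.88% of all). The correlation is a description over arrays that share exposure, time and animals.

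The sham animals were set against the control sites of exposed animals over all 9 times. Limma called no member, where 0.0208% of all probe sets were called. An unadjusted p below 0.05 was reached by 7 members. The share of all probe sets at that unadjusted level is not given here, so the 7 have no background to be read against. Among the 7 were ITGB2 (-0.30 ± 0.14), COL6A2 (0.19 ± 0.08) and ITGB1BP2 (-0.83 ± 0.36), lower or higher in sham skin as signed. A sham group is 1 array a time, so small differences between sham and control sites were not detectable with this number of arrays. With the sham array of a time in place of its 3 controls, the single-time calls kept were COL5A1, ITGA5, ITGB2, ITGB5 and LAMB2 at 24 h, ITGB2 at 48 h, COL5A1 and ITGB2 at 72 h, and COL1A2, ITGB2, ITGB3 and LAMB2 at 168 h. The window calls lost in that comparison were COL1A2 at 24 to 72 h and COL2A1, COL5A3 and LAMC1 at 168 to 514 h.

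Enzymes that make and crosslink collagen did not move as one group. Of 15 measured, 6 rose and 2 fell at 24 to 72 h, and 4 rose and 5 fell at 168 to 514 h. Over all probe sets 18.2% were higher and 16.9% lower in the earlier window, and 12% and 9.88% in the later. PLOD3, a lysyl hydroxylase, rose by 0.60 ± 0.07 and 0.36 ± 0.07 in the 2 windows, and BMP1, which trims the ends of procollagen, by 0.61 ± 0.10 and 0.34 ± 0.10. P4HA2, a prolyl hydroxylase subunit needed for a stable triple helix, fell by 0.63 ± 0.12 and 0.65 ± 0.12, and LOX, the main crosslinking oxidase, by 0.66 ± 0.21 and 0.67 ± 0.21. SERPINH1, the collagen chaperone, was -0.02 and 0.00 and not called. PCOLCE2, an enhancer of procollagen processing, rose by 0.34 ± 0.09 and then fell by 0.88 ± 0.09, a change of -1.22 ± 0.13 between the windows (limma adjusted p = 1.51e-07).

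Among partners of collagens and laminins in the matrix, 15 were measured. Of these 3 rose and 6 fell at 24 to 72 h, and none rose and 5 fell at 168 to 514 h. Shares of all probe sets were 18.2% higher and 16.9% lower in the earlier window, and 12% and 9.88% in the later. TNXB and DPT, which bind collagen fibrils in the dermis, fell by 0.62 ± 0.15 and 0.60 ± 0.13 in the earlier window and by 1.36 ± 0.15 and 1.09 ± 0.13 in the later. FN1, the fibronectin that ITGA5 with ITGB1 binds, fell by 0.44 ± 0.08 at 24 to 72 h and was -0.18 ± 0.08 and not called late. The syndecans, coreceptors for matrix, differed, since SDC4 rose by 0.93 ± 0.07 and SDC1, an epithelial one, fell by 0.92 ± 0.16 at 24 to 72 h. Of 7 fibroblast genes 2 were higher and 2 lower in the earlier window, and 2 lower in the later, where their mean ran from 12.15 to 12.55 in exposed and 12.33 to 12.73 in control arrays.

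Among proteins that link integrins to the cytoskeleton or sit beside them in the membrane, 13 were measured. Of these 7 rose and 1 fell at 24 to 72 h, and 6 rose and 1 fell at 168 to 514 h; the median difference was 0.21 and 0.20, against -0.003 and -4.33e-05 over all probe sets. ACTN1, an actin crosslinker of adhesion sites, rose by 0.31 ± 0.08 and 0.80 ± 0.08 in the 2 windows. CD47, an integrin-associated membrane protein, rose by 0.72 ± 0.08 and 0.57 ± 0.08, and TLN1, the talin that activates integrin beta chains, by 0.21 ± 0.07 and 0.24 ± 0.07. VCL, vinculin, was -0.13 ± 0.07 early and rose by 0.24 ± 0.07 late. CD9, a tetraspanin that binds integrins, fell by 0.20 ± 0.08 and 0.25 ± 0.08.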

How the data were processed

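Total RNA (10 µg) was amplified, labelled with biotin and hybridised to Affymetrix porcine arrays, per the labels' protocols. RMA and Partek are listed in the submitters' processing notes, with versions not given in the sources used here. What the authors deposited is a log2 value for each probe set and array, summarised by RMA. Of 24123 rows 124 array controls were left out. Symbols came from the array's annotation, in which 10069 probe sets had 1 symbol, 198 several and 13732 were not listed. All 29 members matched a RefSeq gene by number with the same symbol. RMA compresses dim signals, so their differences are understated.

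All 63 arrays were fitted with limma (version 3.58.1, under R 4.3.3, files read with data.table, version 1.17.8), using 1 mean for each of 27 groups, 36 residual and 3.24 prior degrees of freedom, two-sided. A sham group of 1 array adds no degrees of freedom and is taken to vary like the others. Window values are means of the 3 within-time differences; ± is the standard error. Arrays have no read depth; precision is limited by their number. Replicate numbers were not taken to pair arrays in the main fit, and a fit with them as a block is given below. The script was tested on simulated data. The members, gene lists and tests were chosen with earlier results of these data known. The rule for naming was that every member is accounted for, by role, with values for those called at several times or in a window. Genes of the lists were named after their values were seen. Sequences were not used here.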

Additional observations from a re-analysis of the deposited data

Results flagged for a closer look

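The difference between exposed and control skin changed between 24 to 72 h and 168 to 514 h in 2 members, by the test of the change itself in limma. ITGA8 changed by 0.99 ± 0.15 on the log2 scale (adjusted p = 3.51e-05), from -0.46 to 0.53. ITGB5 changed by 0.66 ± 0.14 (adjusted p = 0.00142), from -0.77 to -0.11.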

How the results depend on the processing

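Of 60 member results past the threshold, 1047 of 1209 values under the alternatives kept their call and direction, 162 lost the call and none reversed. Window calls were lost for COL6A2 late with the labelling day as a block, for ITGB7 with repeated quantile normalization or the mean of all probe sets, for ITGA2 with the muscle mean or the mean of all probe sets, and for LAMC1 late with the mean of all probe sets, besides those lost with sham arrays as controls. The calls of ITGB2 at 24, 48, 72 and 168 h, of LAMB2 at 24 and 168 h and of ITGB5 at 24 h were kept in every alternative run, as were the window calls of LAMB2, COL5A1, ITGB2, ITGB3 and ITGA8. With the mean of all probe sets LAMC1 reversed and was called higher: LAMC1, 24 h, was 0.56, LAMC1, 48 h, 0.75, LAMC1, 72 h, 0.59 and LAMC1, 24 to 72 h, 0.63; the cause is the 3 other probe sets. Counts of members called moved by over 1.5 times as follows, and the cause was not tested. At 24 h 9 became 5 with sham arrays as controls, where 1 array stands for 3. At 48 h 2 became 5 with the muscle mean in the model and 1 with the arrays of that time alone. At 72 h 7 became 2 with sham. At 336 h 4 became 2 with the labelling day as a block, 2 with its arrays alone and 0 with sham. At 514 h 3 became 1 with its arrays alone. 

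In the fit with a replicate block the count was 8 at 48 h, 9 at 336 h, 5 at 514 h and 8 for the change between windows. Same-numbered exposed and control arrays correlated above 0.1 in 21 of 27 pairs (mean r = 0.27) and in all 3 pairs at 5 of 9 times. All 27 such pairs shared a day of sacrifice. The labels do not say that a number marks an animal, so the main fit did not pair the arrays. Whether same-numbered arrays are pairs is not settled, and members short of the threshold in the main fit are to be read with that limit. Under the block, COL6A3 and COL4A2 passed for the change between windows (adjusted p = 0.0342 and 0.0146) and LAMB1 and ITGA5 at 168 to 514 h (0.00161 and 0.00204).

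Leaving out 1 array gave 7 to 8 members at 24 h, 1 to 2 at 48 h, 4 to 8 at 72 h, 4 to 8 at 168 h, 1 to 5 at 336 h, 0 to 3 at 514 h, 9 to 11 over 24 to 72 h and 12 to 14 over 168 to 514 h. Counts moved by over 1.5 times without exposed 2, exposed 3, control 1 or control 2 at 48 h (1), exposed 3 or any control at 72 h (4), exposed 2 (4) or control 2 (5) at 168 h, exposed 1, exposed 2 or control 3 (1) or control 2 (2) at 336 h, and exposed 1 or control 1 (1) or exposed 2 (0) at 514 h.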
